A study of Mus musculus with 11 samples.

Results

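Mouse embryonic stem cells (ESCs) whose RNA was sequenced alongside a SILAC protein assay were compared with the other ESC libraries of the same study. SILAC, stable isotope labelling with amino acids in cell culture, is a mass-spectrometry method in which cells grow in medium with heavy or light amino acids. The members are the 2 libraries labelled replicate C, 1 from wild-type (WT) cells and 1 from cells knocked out for Mettl3 (KO), which encodes the m6A RNA methyltransferase, and the comparison group is the 4 libraries labelled replicates A and B of the same genotypes. They are 2 of 11 samples in the series, which also holds 4 embryoid body (EB) libraries, aggregates in which ESCs differentiate, and an embryonic fibroblast sample that is not analysed here. Genes with a mean of 10 or more normalized counts over the 6 ESC libraries were tested, which left 15350 of 39179. The labels give C57BL/6 as the strain of every group and the same culture for all ESCs, a serum-free medium with LIF and inhibitors of the kinases GSK3 (CHIR99021, 1 to 3 µM) and MEK (PD0325901, 1 µM). The EBs were kept for 8 to 21 days in medium with serum. No age, sex, cell line, passage, labelling medium or harvest date is given, and nothing says whether the A and B libraries came from separate cultures, so p values cover the spread among these libraries only, which may be technical.

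MEK is the kinase that activates ERK, the last kinase of the pathway that runs from fibroblast growth factor receptors through Ras. In mouse ESCs, ERK activity favours the exit from the naive state, and blocking MEK while LIF and Wnt signalling are kept on holds cells there. ERK output is commonly read from transcripts that it induces, among them those of its own feedback inhibitors, the Sprouty and Spred proteins and the dual-specificity phosphatases. Most messenger RNAs end in a poly(A) tail added after cleavage near an AATAAA signal, while mRNAs of replication-dependent histones end in a stem-loop and RNA polymerase III products carry no tail, so selection for poly(A) RNA leaves few of them. The labels give poly(A) RNA as the molecule for all libraries.

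The SILAC-batch libraries held 3026837 (WT) and 3075007 (KO) reads in genes, and the A and B libraries 8824396 to 15426894. In normalized counts, 3 reads, the limit that a count of 0 allows, came to 9.88 and 8.33 for the SILAC-batch libraries and to 1.63 to 2.72 for A and B. Computed for the depth of the shallowest library, 15934 and 16635 genes had a read in the SILAC batch and 19325 to 19878 in A and B. Alignments that were not unique made up 30.6% and 28.7% of records in the SILAC batch and 39.9% to 42.2% in A and B. Mettl3, the targeted gene, stood at 422 and 392 normalized counts for WT A and B and at 425 in the WT SILAC-batch library, against 138 and 133 in KO A and B and 131 in the KO SILAC-batch library, as the labels imply. With 1 SILAC-batch library per genotype, the protein-assay culture, the depth, the library preparation and the replicate letter cannot be told apart in any result below. The same holds for any difference in the line or sex of the cells, whose sex-linked genes are described below.

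Of the 15350 genes, 9986 (65.1%) passed the test of the batch with genotype as a covariate (limma on log2 of the value plus 1, adjusted p under 0.05), 4249 of them higher in the SILAC batch (27.7% of genes) and 5737 lower (37.4%). Changes of 2-fold or more that passed were 2569 higher (16.7%) and 4371 lower (28.5%). In 4087 of the 15350 genes both SILAC-batch libraries lay above every A and B library, and in 5492 both lay under them. A lack of overlap is therefore common among all genes. The median log2 difference over all genes tested was -0.19, with quartiles at -1.34 and 0.66. When library sizes were set from protein-coding genes outside the histone list, the median moved to -0.61, and the share of calls that were higher moved from 42.5% to 26.2%. Among the 9879 genes with a mean of 100 or more, 3390 were higher and 3189 lower (median 0.03), so the excess of lower calls was not seen there. Gene lists are therefore described by their counts beside these shares and by their median beside -0.19. Values below are DESeq-normalized counts in the order WT A, WT B, KO A and KO B, followed by the SILAC-batch WT and KO libraries. Log2 differences are SILAC batch minus A and B on the log2(value + 1) scale, given as the difference ± its SE from the fit over 6 libraries, with limma's adjusted p.

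RNAs that lack a poly(A) tail were almost absent from the SILAC batch and abundant in every other library. All 51 tested replication-dependent histone genes were lower (median -9.71, or -7.39 with values under 3 reads set to 3 reads), as were 35 of 35 small nucleolar and Cajal body RNAs (median -4.70, or -2.72), which guide RNA modification, and 12 of 13 RNA polymerase III products and other RNAs without a tail (median -9.66, or -6.33). These genes reached the mean of 10 mostly through A and B, so their counts of lower members are not a test of the class. The whole data set holds 62 such histone genes, 147 small nucleolar and Cajal body RNAs and 22 genes of the polymerase III list. The shares of reads below cover all of these and do not depend on that filter. Replication-dependent histone genes took 1.39% to 1.88% of gene reads in A and B and 0.00208% and 0.00312% in the SILAC batch. The polymerase III list took 4.81% to 6.40% against 0.000231% and 0.00013%. In the EBs these shares were 1.13% to 1.52% and 3.40% to 7.08%, within or near the range of the ESC A and B libraries. Protein-coding genes made up 79.4% to 82.8% of gene reads in A and B and 97.9% and 97.8% in the SILAC batch.

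**Figure D1:**
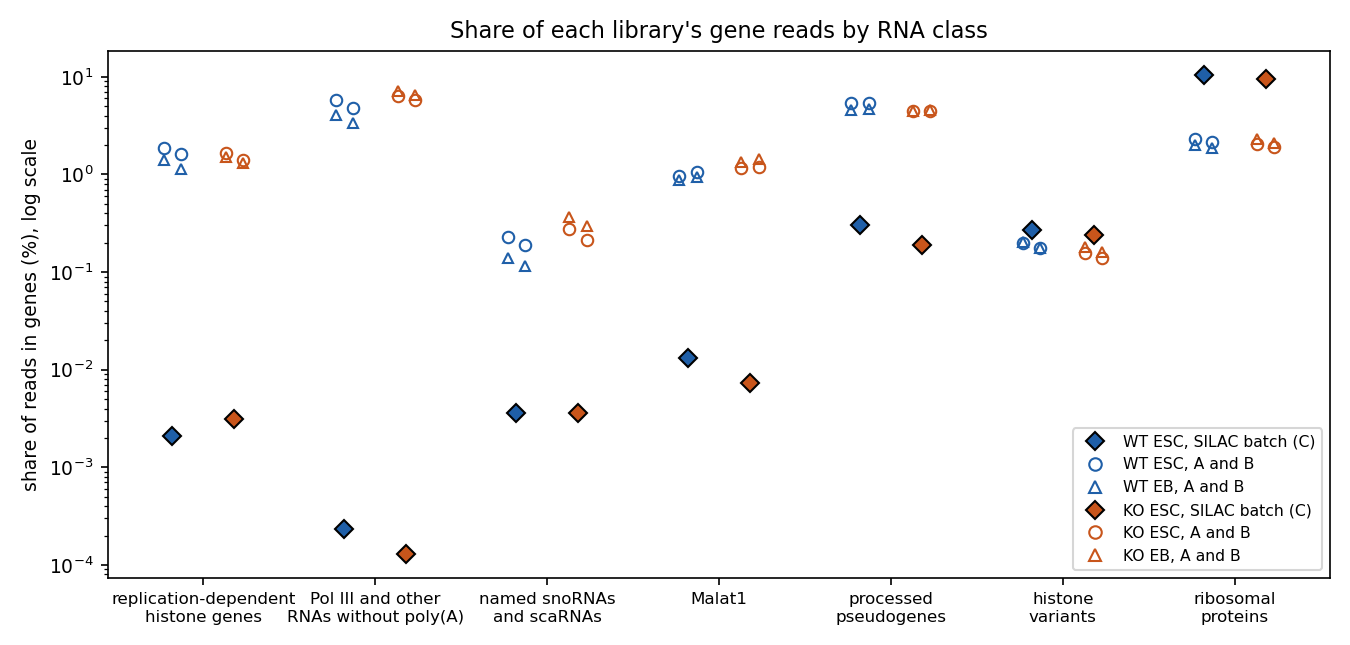
Share of reads in genes (%, log scale) by RNA class in each of the 10 libraries; diamonds are the SILAC batch, circles ESC A and B, triangles EBs. For the histone class the SILAC-batch diamonds sit at 0.00208% and 0.00312%, while the ESC circles sit at 1.39% to 1.88%; ribosomal protein genes lie the other way, at 10.5% and 9.55% against 1.92% to 2.33%.

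The stem-loop that ends a replication-dependent histone mRNA was looked for in the last 100 bases of the annotated transcripts, as a stem of 6 paired bases beginning with GG and a loop of 4 bases beginning with TT, on the sense strand. It was found in 15 of 51 replication-dependent histone transcripts (29.4%), in 0 of 11 replication-independent histone variants and in 1 of 13008 other protein-coding transcripts (0.008%). AATAAA or ATTAAA was found in the last 50 bases of 12 of 51 (23.5%), 9 of 11 (81.8%) and 10265 of 13008 (78.9%) of them. Annotated histone transcripts may stop before their stem-loop, but sequence past their ends was not examined. A missing match therefore says only that these letters are not in the window. Examples, chosen for their sequence, are shown because they mark the mRNAs that the SILAC batch lacked, with the paired stem in capitals and the loop in lower case (GRCm38, GENCODE M21 transcripts):
Hist1h4f, chr13:23551291-23551306, minus strand: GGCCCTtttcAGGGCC
Hist1h4b, chr13:23757366-23757381, plus strand: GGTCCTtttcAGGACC
Hist1h3c, chr13:23745047-23745062, minus strand: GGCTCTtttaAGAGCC
Hist2h2ac, chr3:96220418-96220433, minus strand: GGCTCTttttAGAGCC

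Hist1h4f, an H4 gene on chromosome 13 (23551258 to 23551648), had 8638, 6308, 9233 and 6638 normalized counts outside the SILAC batch and no read in either SILAC-batch library. Against the floor of 3 reads per library this was at least 846-fold lower. Hist1h1c, which encodes a linker histone, had 12360, 11166, 15619 and 13640, against 13.2 and 117 (-8.32 ± 0.58, adjusted p = 9.9e-05). Among the polymerase III products, Rn7sk, which holds the elongation factor P-TEFb inactive, had 100484, 107834, 188949 and 201312, against 0 and 5.55, the latter being 2 reads. Rmrp, the RNA of RNase MRP, had 142371, 100542, 141064 and 103354 and no read in the SILAC batch, at least 13378-fold lower. Rpph1, the RNA of RNase P, had 258197, 187716, 191216 and 142287, against 23.1 and 0. Scarna10, a Cajal body RNA, had 2141 to 3197 and no read in the SILAC batch (at least 296-fold lower). Snora73b, a small nucleolar RNA, stood at 4435 to 6590 against 188 and 86.1. The groups did not overlap in any of these genes, as in 5492 of all 15350 genes in the lower direction. Only 5 of the 51 histone genes share 5% or less of their 31-base words with another locus, so reads may be split between copies, while the class totals do not depend on that split within the class.

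Malat1, a long nuclear RNA whose mature end is a triple helix in place of a poly(A) tail, fell from 85369, 90809, 96311 and 95409 to 1327 and 628 (-6.65 ± 0.26, adjusted p = 1.3e-05). Neat1, the scaffold RNA of paraspeckles, which has a polyadenylated short form and a long form without a tail, went different ways in the genotypes. It had 751 and 847 in WT A and B against 1047 in the WT SILAC-batch library, and 6863 and 7249 in KO A and B against 106 in the KO library (difference of the shifts, KO minus WT, -6.44 ± 0.16, adjusted p = 1.24e-05 in limma and 2.32e-05 in edgeR). Of 14 nuclear-retained long RNAs tested, 6 were higher and 2 lower. Of 11 polyadenylated histone variants, 4 were higher and 4 lower (median -0.50). H3f3b, an H3.3 gene, rose from 3091, 3233, 2086 and 1946 to 6601 and 4205 (1.06 ± 0.09, adjusted p = 0.00021), and Cenpa, the centromeric H3, rose by 1.30 ± 0.20 (adjusted p = 0.0022). H2afx, which yields both stem-loop and polyadenylated mRNAs, fell from 7573, 5616, 3363 and 2678 to 1054 and 608 (-2.46 ± 0.18, adjusted p = 0.00011). H2afj, a replication-independent H2A gene, fell by 2.13 ± 0.29 (adjusted p = 0.0013).

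Genes of the machinery that makes or removes 3' ends had medians within 0.33 of 0. Of 25 cleavage and polyadenylation genes tested, 12 were higher and 5 lower (median 0.33, or -0.10 with library sizes from protein-coding genes and -0.05 over the 20 members that share few words). Papola, the main nuclear poly(A) polymerase, had 1545, 1655, 1110 and 1099, against 2352 and 2114 (0.75 ± 0.12, adjusted p = 0.0025, and 0.32 with adjusted p = 0.099 under that library size). Pcf11, a termination factor, fell by 1.24 ± 0.15 (adjusted p = 0.00071), and Papolg, another nuclear polymerase, fell by 1.01 ± 0.12 (adjusted p = 0.00076). Pabpc1, the cytoplasmic poly(A)-binding protein, stood at 1039 to 1233 against 20591 and 13718, but 33% of its words occur at another locus. Of 11 genes for histone 3' end processing, 6 were higher and 2 lower (median 0.33, or -0.09 under that library size). Slbp, which binds the histone stem-loop, had 738, 721, 581 and 569, against 1295 and 889 (0.73 ± 0.10, adjusted p = 0.0014). The cap-binding subunit Ncbp2 rose by 1.93 ± 0.13 and its partner Srrt by 1.08 ± 0.10, while Casp8ap2, a histone locus body protein, fell by 0.94 ± 0.12 (adjusted p = 0.00085). Of 18 deadenylation genes, 9 were higher and 1 lower (median 0.31, or -0.11 under that library size). Without the WT SILAC-batch library 8 were higher and 6 lower (median 0.02), and without the KO one 11 and 1 (median 0.51). Cnot9 and Cnot11, subunits of the CCR4-NOT deadenylase, each rose by 0.95 ± 0.15, and Pan3, a subunit of the other main deadenylase, fell by 0.93 ± 0.17 (adjusted p = 0.0041).

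Reads of genes with near-identical copies also fell differently in the SILAC batch. Of 743 processed pseudogenes tested, 673 were lower (median -5.92), and their share of gene reads was 4.44% to 5.41% in A and B against 0.305% and 0.189%. Of 83 ribosomal protein genes, 76 were higher (median 3.71), and 56 of 63 ribosomal protein pseudogenes with a "-ps" symbol were lower (median -7.18). Only 3 of the 83 share 5% or less of their words with another locus, and their median was 0.49. The pair of Rps16 and Rps16-ps2, a small-subunit gene and a processed copy of it, shows both sides. Rps16 had 62.9, 53.4, 46.3 and 52.7, against 11127 and 10790. Rps16-ps2, chosen after its values were seen, had 3952, 3036, 3694 and 2919, and no read in the SILAC batch (at least 373-fold lower). Protein-coding genes with no shared word had a median of -0.13 and those with 20% to 50% of their words shared a median of 1.16. How the reads of copies were assigned was not tested, and levels of genes that share many words are uncertain in every library here. Longer transcripts were lower: with protein-coding genes of few shared words put in 5 equal bins of transcript length (1542 or 1543 genes each), the medians from the shortest to the longest bin were 0.39, 0.16, 0.05, -0.22 and -0.59.

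Sex-linked genes separated the SILAC batch from all other libraries. The Y-linked genes Ddx3y, Eif2s3y, Uty and Kdm5d and the X-linked Xist were chosen after their values were seen. Ddx3y, an RNA helicase gene on the Y chromosome (1260771 to 1286629), had 106, 140, 834 and 945 normalized counts, against 0 and 2.78, the latter being 1 read. Eif2s3y, a translation initiation factor, had 76.5, 85.5, 481 and 519 and no read in the SILAC batch (at least 31.9-fold lower), and Uty, a demethylase relative, had 65.1, 103, 279 and 372 and none (at least 22.5-fold lower). Kdm5d, a histone demethylase, stood at 5.01 and 3.82 in WT A and B and at 239 and 266 in KO A and B, with none in the SILAC batch; its call was lost with values under 3 reads set to 3 reads (adjusted p = 0.211). Together these genes had 353, 436, 3369 and 2316 reads in A and B, 287 to 2305 in the EBs, and 0 and 1 in the SILAC batch. WT A and B had fewer of these reads than KO A and B.

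Genes on the X chromosome were higher in the SILAC batch. Over 224 protein-coding X-linked genes with a mean of 100 or more and few shared words, 144 were higher (64.3%) and 14 lower, with a median of 0.87 (1.00 in WT and 0.83 in KO). On the autosomes, 29.7% of 7484 such genes were higher, and the chromosome medians lay between -0.18 and 0.12. Of the reads in all protein-coding genes that met these 2 limits, the X-linked ones took 4.06% and 3.56% in the SILAC batch. In the other 8 libraries they took 1.8% to 2.14%. Xist, the RNA that coats the inactive X, had 76.5, 99.2, 82.7 and 88.1, against 148 and 41.7, and did not pass the test (adjusted p = 0.80). The labels do not give the sex or the origin of the lines, and whether the SILAC-batch cells came from the same lines as A and B cannot be told from the labels. X-linked genes named below are marked, because the chromosome as a whole moved with the batch.

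**Figure D2:**
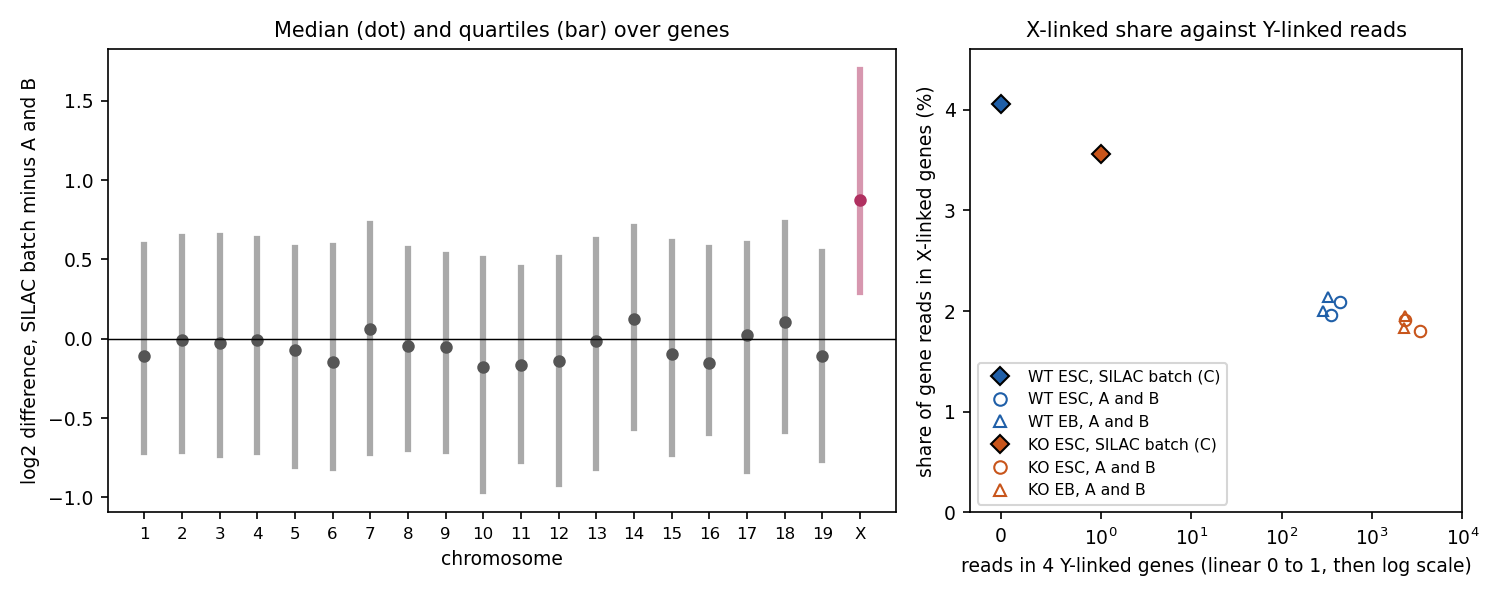
Left, median (dot) and quartiles (bar) of the log2 difference, SILAC batch minus A and B, over protein-coding genes of each chromosome; X sits at 0.87 and the autosomes between -0.18 and 0.12. Right, share of gene reads in the 224 X-linked genes (%) against reads in 4 Y-linked genes (linear from 0 to 1, then log scale) in each of the 10 libraries; the 2 SILAC-batch diamonds sit apart at 0 and 1 Y-linked reads.

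Feedback inhibitors of ERK signalling were mostly higher in the SILAC batch. Of 17 tested, 11 were higher and 4 lower (median 1.07, or 0.65 with library sizes from protein-coding genes), and none of the 17 shares over 5% of its words with another locus. Their summed level was 3258 to 3399 in A and B, 9839 and 8177 in the SILAC batch and 5865 to 7541 in the EBs. Spry4, a Sprouty inhibitor of receptor signalling, had 0, 0.763, 0.544 and 1.82 normalized counts, 4 reads in all, against 2447 and 1897 (10.34 ± 0.46, adjusted p = 1.9e-05). It had the largest rise of the genes named here, and EBs had 195 to 451. Spry2 had 283, 286, 216 and 239, against 955 and 833 (1.81 ± 0.11, adjusted p = 6.4e-05). Spred1, which brings neurofibromin to Ras, had 252, 305, 343 and 378, against 695 and 1269 (1.57 ± 0.16, adjusted p = 0.00044). Spry1 had 81.5, 71.8, 102 and 95.4, against 142 and 106, and did not pass (adjusted p = 0.11).

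Among the phosphatases that remove phosphate from ERK, 5 of 7 were higher and 2 lower. Dusp6, the cytoplasmic ERK phosphatase and chosen after its values were seen, had 53.6, 52.7, 20.7 and 16.3, against 629 and 500 (4.12 ± 0.30, adjusted p = 0.00013). Dusp9, which is X-linked, had 775, 669, 156 and 143, against 2540 and 933 (2.23 ± 0.21, adjusted p = 0.00028). Dusp5, the nuclear ERK phosphatase and also chosen after its values were seen, stood at 34.5 to 61.5 against 270 and 336 (2.62 ± 0.27). For Dusp6, Dusp9 and Dusp5 both SILAC-batch libraries lay above all 4 others, as for 4087 of all 15350 genes. Of the 2 lower phosphatases, the larger fall was -1.21, and 1 had both SILAC-batch libraries under all others. Outside the phosphatases, Lrig1, a negative regulator of growth factor receptors, fell, with 426, 440, 904 and 896 against 125 and 128 (-2.30 ± 0.24, adjusted p = 0.00043). Rasa3, a Ras GTPase-activating protein, fell by 1.90 ± 0.22 (adjusted p = 0.00067).

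Of 38 transcripts that ERK induces, 19 were higher, 3 were lower and 16 did not pass (median 0.90, or 0.48 under the other library size, where 14 were higher and 8 lower). Without the WT SILAC-batch library 21 were higher and 5 lower (median 0.53), and without the KO one 23 and 8 (median 1.22). The summed level of the 38 was 11761 to 14497 in A and B, 28944 and 21900 in the SILAC batch and 12420 to 17028 in the EBs. By kind, 3 of 6 ETS factors, 4 of 16 immediate early factors and 12 of 16 other targets were higher. Etv4, an ETS factor downstream of FGF signalling, had 47.2, 40.5, 25 and 18.2, against 1986 and 1266 (5.65 ± 0.21, adjusted p = 9.2e-06). Its relative Etv1, chosen after its values were seen, stood at 6.36 to 10.7 against 188 and 153 (4.16 ± 0.29). Etv5 had 2008 and 1978 in WT A and B against 3650, and 2809 and 2505 in KO A and B against 2250, and did not pass over both genotypes (adjusted p = 0.30). Myc and Egr1 were chosen after their values were seen. Myc, a growth-promoting transcription factor, had 6.44, 5.34, 3.26 and 2.72, against 768 and 619 (7.04 ± 0.28, adjusted p = 1.1e-05). Egr1, an immediate early factor, had 2.15, 0, 0.544 and 2.72, against 122 and 705 (7.16 ± 0.75, adjusted p = 0.00046). Most other immediate early genes did not pass (11 of 16). Ccnd1 and Ccnd3, D-type cyclins, rose by 2.44 ± 0.12 and 1.90 ± 0.14, Ccnd1 from 338, 334, 468 and 445 to 2042 and 2222. Epha4, an ephrin receptor, had 1038, 1061, 1623 and 1824, against 148 and 150 (-3.16 ± 0.18, adjusted p = 4.5e-05), and Gdf15, a stress-induced growth factor, fell by 3.14 ± 0.27.

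Components of the pathway showed no common direction. Of 33 tested, 14 were higher and 9 lower, beside 27.7% and 37.4% of all genes, with a median of 0.12 that turned to -0.30 with library sizes from protein-coding genes. Among 8 receptors, 1 was higher and 3 lower. Egfr and Igf1r, chosen after their values were seen, were lower (-2.25 ± 0.28 and -2.37 ± 0.52). Among 4 ligands, Fgf4, the main FGF of ESCs, had 3987, 3740, 4457 and 4150, against 2671 and 1989 (-0.82 ± 0.15, adjusted p = 0.0044), while Fgf15, chosen after its values were seen, had 0.715 to 3.82 against 112 and 108 (5.19 ± 0.51). Of 11 adaptors and Ras proteins, 7 were higher. Hras had 632, 547, 708 and 617, against 922 and 1330 (0.83 ± 0.14, adjusted p = 0.003, and 0.40 with adjusted p = 0.0626 under the other library size). Grb2, the adaptor that recruits the Ras activator Sos and chosen after its values were seen, rose by 1.81 ± 0.17. Among the kinases, Mapk3 (ERK1), chosen after its values were seen, stood at 124 to 153 against 748 and 530 (2.16 ± 0.13). Map2k1 (MEK1) fell by 0.61 ± 0.11 (adjusted p = 0.0041), and the scaffold Ksr1 fell by 1.89 ± 0.28. Activity of the kinases was not measured, and whether the inhibitor medium was the same in the SILAC batch was not tested.

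**Figure D3:**
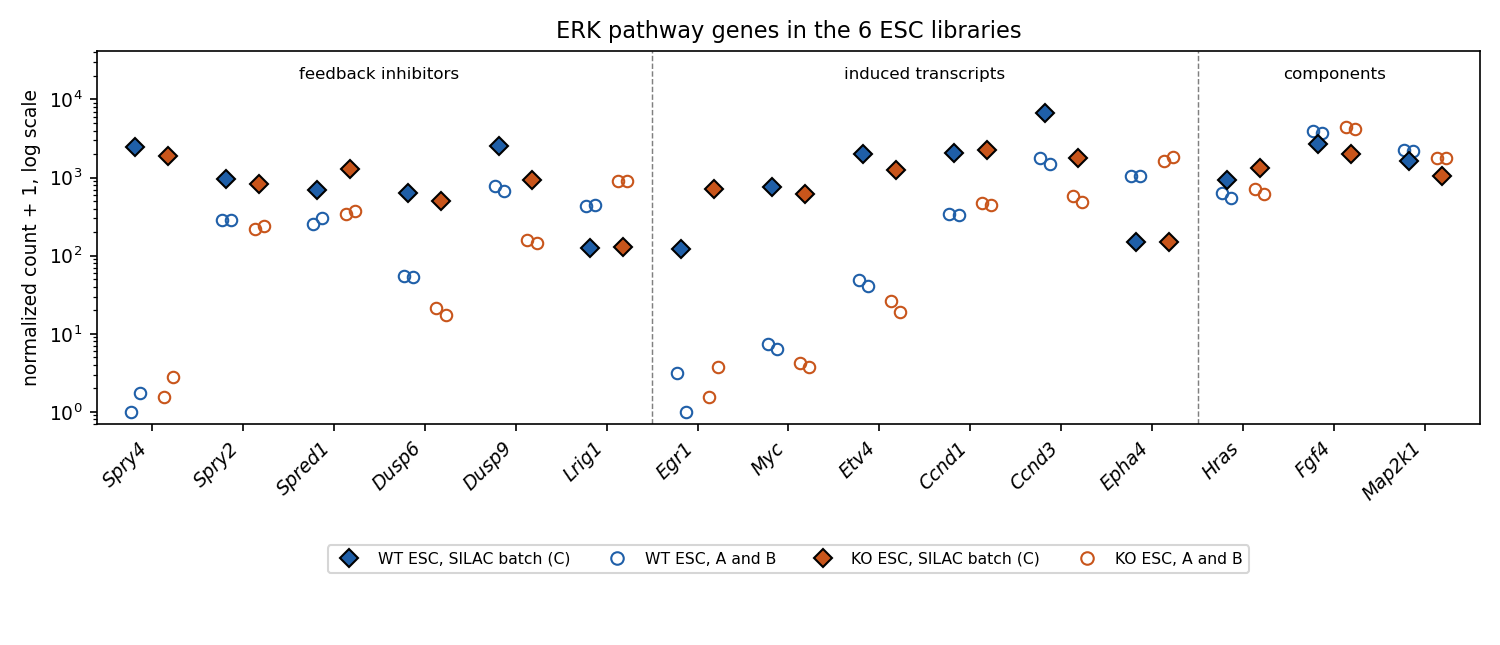
Normalized count plus 1 (log scale) of ERK pathway genes in the 6 ESC libraries; diamonds are the SILAC batch, circles A and B, blue WT and orange KO. For Spry4 the circles lie at 1.82 normalized counts or less and the diamonds at 1897 and 2447, while Lrig1, Epha4, Fgf4 and Map2k1 have diamonds under the circles.

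Pluripotency genes were expressed in all 6 ESC libraries, and the general ones were mostly higher in the SILAC batch. Of 15 general pluripotency genes, 11 were higher and 1 lower (median 1.87). Among the 9 that share few words, 6 were higher and 1 lower (median 2.31). Pou5f1, which encodes Oct4, had 9280, 8416, 9512 and 8389, against 28269 and 18170 (1.35 ± 0.17, adjusted p = 0.00095). Tdgf1, the Nodal co-receptor Cripto, stood at 1022 to 2680 against 10422 and 4927 (2.13 ± 0.10), and the RNA-binding protein gene L1td1 rose by 1.87 ± 0.12. Dnmt3l, a cofactor of de novo DNA methylation, had 976, 1006, 486 and 521, against 13331 and 4480 (3.45 ± 0.15, adjusted p = 1.9e-05). Lin28a and Utf1 were chosen after their values were seen. Lin28a, an inhibitor of let-7 maturation, had 307, 303, 16.9 and 12.7, against 3847 and 2508 (5.49 ± 0.78, adjusted p = 0.0015). Utf1, a chromatin factor, rose by 3.53 ± 0.22. Sox2, the partner of Oct4, fell from 9742, 7709, 11678 and 9072 to 3913 and 4080 (-1.24 ± 0.16, adjusted p = 0.00097).

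Genes of the naive state moved both ways. Of 21, 6 were higher and 7 lower (median -0.37). Among the 17 that share few words, 3 were higher and 7 lower (median -0.46). In WT alone 10 of the 21 were higher and 6 lower (median 0.45), and in KO alone 6 were higher and 12 lower (median -0.43). Nanog had 3279, 3834, 3386 and 3768, against 7777 and 6080 (0.95 ± 0.13, adjusted p = 0.0015), and Zfp42, also called Rex1, had 1300, 1380, 1213 and 1206, against 10771 and 4477 (2.45 ± 0.25, adjusted p = 0.00041). Fbxo15, an Oct4 target, fell by 1.86 ± 0.12, and the surface protein gene Pecam1 had 2026, 2191, 894 and 909, against 237 and 303 (-2.36 ± 0.34). Esrrb, an orphan receptor of the naive network, stood above its controls in WT (3875 and 3618 against 8027) and under them in KO (8803 and 8050 against 4585), and the same was true of Klf4, chosen after its values were seen (2361 and 2108 against 3050 in WT, 5434 and 4617 against 1708 in KO). The KO shift minus the WT shift was -1.98 ± 0.14 for Esrrb (adjusted p = 0.000484 in limma and 0.00109 in edgeR) and -2.0 ± 0.18 for Klf4 (0.000899 and 0.00183). Of 18 genes of the formative and primed epiblast, the states that follow the naive one, 11 were higher and 2 lower (median 1.09, or 0.67 under the other library size). Dnmt3b, a de novo methyltransferase, had 438, 408, 405 and 384, against 949 and 1405 (1.5 ± 0.17, adjusted p = 0.00064). The factor genes Foxd3 and Zic2 fell (-1.59 ± 0.38 and -1.51 ± 0.18).

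Ligands and targets of Nodal and BMP signalling, the pathways of the TGF-beta family in the early embryo, were more often higher than lower. Of 15 tested, 9 were higher and 1 lower (median 0.92), or 9 and 4 under the other library size. By role, 3 of 4 ligands and 6 of 11 targets were higher. Of the 9 targets that share few words, 4 were higher, and their median was 0.09 against 3.05 over all 11. Nodal itself had 520, 489, 725 and 699, against 949 and 1100 (0.77 ± 0.11, adjusted p = 0.0017), and Gdf3, a related ligand, rose by 0.92 ± 0.11. Lefty2, a Nodal antagonist induced by the pathway, had 48.6, 55.0, 11.4 and 9.99, against 758 and 1455 (5.40 ± 0.67, adjusted p = 0.00088). Lefty1, chosen after its values were seen, stood at 1.53 to 9.08 against 277 and 600. The Id genes, whose products inhibit differentiation factors downstream of BMP, rose together. Id2 had 70.8, 62.6, 48.4 and 56.3, against 738 and 839 (3.72 ± 0.19, adjusted p = 3.1e-05). Id1 and Id3, chosen after their values were seen, rose by 6.92 ± 0.41 and 3.05 ± 0.29. Bmp4 had 10.0, 7.63, 25.6 and 23.6, against 646 and 333 (4.88 ± 0.53), and Bmp7 fell by 2.20 ± 0.17. Of 10 Wnt targets, 4 were higher and 1 lower: Lef1, a Wnt effector, rose by 3.81 ± 0.50, and Axin2, the feedback inhibitor, had 176, 131, 118 and 128, against 65.9 and 22.2 (-1.81 ± 0.32, adjusted p = 0.0038). Of 16 LIF and STAT3 genes, 3 were higher and 2 lower (median -0.02). Bcl3, a STAT3 target, rose by 1.76 ± 0.21, and the kinase gene Jak2 fell by 2.96 ± 0.41.

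Of 10 genes of the DNA methylation machinery, 5 were higher and 2 lower (median 0.65). Under the other library size 4 were higher and 3 lower (median 0.22), and of the 7 that share few words 2 were higher and 2 lower (median 0.38). Dnmt1, the maintenance methyltransferase, had 5267, 5039, 3712 and 3675, against 2283 and 1641 (-1.17 ± 0.09, adjusted p = 0.00013). Tet2, which oxidises methylcytosine, had 2074, 2294, 5134 and 5464, against 1133 and 233 (-2.72 ± 0.74, adjusted p = 0.020, or 0.0626 with the replicate letter as a block). DNA methylation was not measured.

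Metabolic lists were checked because SILAC medium differs from ordinary medium in its amino acids. Of 46 genes of the amino acid response through ATF4, 7 were higher and 19 lower (median -0.24, beside -0.19 over all genes). Asns, asparagine synthetase, had 10756, 11176, 10482 and 11026, against 4997 and 3019 (-1.48 ± 0.17, adjusted p = 0.00064), and the tRNA synthetase gene Aars fell by 1.03 ± 0.10. None of 12 tRNA synthetase genes was higher and 4 were lower. The amino acid transporter genes Slc7a3, which is X-linked, and Slc38a2 rose by 2.58 ± 0.18 and 1.25 ± 0.11, Slc38a2 from 1247, 1288, 1146 and 1182 to 3399 and 2447. Of 36 genes for cholesterol and fatty acid synthesis, 8 were higher and 12 lower (median -0.18). Acly, which makes cytosolic acetyl-CoA, fell by 0.91 ± 0.14. Of 27 hypoxia and glycolysis genes, 15 were higher and 7 lower, but among the 16 that share few words 4 were higher and 7 lower (median -0.26). Hk1, a hexokinase, had 1207, 1143, 1886 and 1755, against 300 and 228 (-2.48 ± 0.23), and Vegfa fell by 1.64 ± 0.16. Of 18 p53 targets, 7 were higher and 2 lower (median 0.31, or -0.10 under the other library size). The pro-apoptotic genes Bax and Bbc3 moved apart, Bax up by 0.88 ± 0.13 and Bbc3 down, from 566, 403, 839 and 617 to 201 and 172. Of 30 cell cycle genes, 14 were higher and 4 lower (median 0.33, or -0.09 under the other library size).

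In each of the 6 lists of matrix and integrin genes, more members were lower in the SILAC batch than higher. The same held over all genes, with 37.4% lower and 27.7% higher. In the bin of longest transcripts described above, 833 of 1542 genes were lower and 224 higher (median -0.59). Transcript length was not taken into account for the matrix lists. Fibrillar collagens form the fibres of connective tissue and are made mainly by fibroblasts and related cells. Of 9 tested, 7 were lower and none higher (median -3.26), against 37.4% of all genes lower, and their summed level was 8695 to 13245 in A and B, 306 and 567 in the SILAC batch and 3315 to 4471 in the EBs. Col3a1, on chromosome 1 (45311538 to 45349706), had 3115, 3171, 6222 and 6532 normalized counts, against 23.1 and 19.4 (-7.66 ± 0.28, adjusted p = 9.1e-06). Col1a2 had 2110, 2201, 3200 and 3177, against 36.2 and 27.8 (-6.32 ± 0.22), and Col1a1, its partner chain in type I collagen, had 984, 907, 1389 and 1311, against 56.0 and 16.7 (-5.15 ± 0.47, adjusted p = 0.00027). Col5a1 stood at 1191 to 1381 against 88.9 and 200. Of 7 other collagens found in fibroblasts, 6 were lower (median -3.57). Col12a1, which sits on collagen fibres, had 498, 580, 360 and 390, against 6.59 and 5.55 (-5.99 ± 0.18, adjusted p = 4.4e-06), and the microfibril chains Col6a1 and Col6a3 fell (-3.57 ± 0.17 and -4.24 ± 0.29). For each of these collagens the groups did not overlap, as for 5492 of all 15350 genes in the lower direction.

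Genes of the basement membrane, the sheet under epithelia, were mostly lower as well. Of 16 basement membrane genes, 12 were lower and 1 higher (median -0.86). Lama5, a laminin chain, had 5168, 4629, 15220 and 13759, against 1555 and 1797 (-2.33 ± 0.30, adjusted p = 0.001), Lamc1 fell by 0.94 ± 0.18 and Nid1, which links laminin to collagen IV, fell by 2.41 ± 0.22. Col18a1 had 2509, 2432, 389 and 357, against 3933 and 2777 (1.78 ± 0.47, adjusted p = 0.017); its call was lost with the replicate letter as a block (adjusted p = 0.0569) and with library sizes from protein-coding genes (adjusted p = 0.0512). Col4a1, a chain of collagen IV and chosen after its values were seen, had 634 and 614 in WT A and B against 283, and 392 and 369 in KO A and B against 639. Of 27 glycoproteins and proteoglycans, 19 were lower and 2 higher (median -1.78), and 14 of the 17 glycoproteins were lower and none higher. Fn1, fibronectin, had 9322, 9081, 9606 and 9672, against 4457 and 1941 (-1.68 ± 0.28, adjusted p = 0.0028), Thbs1, thrombospondin, had 1572, 1545, 631 and 630, against 135 and 211, and Fbln2, fibulin, stood at 847 to 1243 against 79.1 and 75 (-3.71 ± 0.14). Gpc3, an X-linked glypican, rose by 3.21 ± 0.27.

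Of 25 matrix processing genes, 12 were lower and 4 higher (median -0.38), the lower ones mostly among 15 genes for collagen folding and crosslinking (9 lower, 2 higher). Lox, the crosslinking enzyme lysyl oxidase, had 709, 679, 668 and 583, against 36.2 and 30.6 (-4.27 ± 0.13, adjusted p = 4.5e-06), and the lysyl hydroxylase gene Plod1 fell by 1.12 ± 0.18. Pcolce, an enhancer of procollagen cleavage, had 621, 453, 494 and 440, against 1762 and 1019 (1.43 ± 0.20), and Timp1, an X-linked protease inhibitor, rose by 2.15 ± 0.14. Among 11 integrin genes, which encode receptors for the matrix, 6 were lower and 2 higher. Itgav, a subunit of vitronectin receptors, had 657, 691, 1047 and 1167, against 161 and 200 (-2.26 ± 0.14, adjusted p = 5.7e-05), and Itgb4, a laminin receptor subunit, fell by 2.51 ± 0.23. Itga5, a subunit of the fibronectin receptor, had 101, 105, 207 and 198, against 1047 and 719 (2.58 ± 0.33, adjusted p = 0.001).

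**Figure D4:**
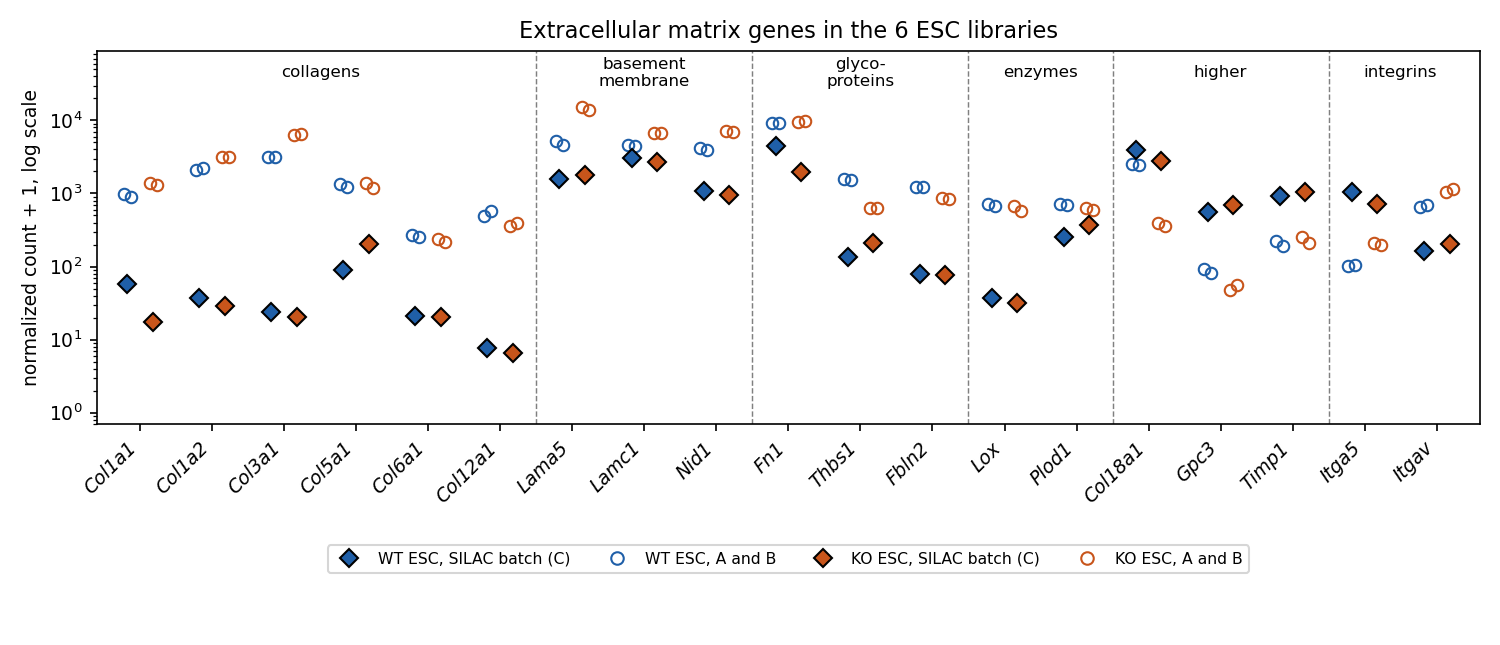
Normalized count plus 1 (log scale) of matrix and integrin genes in the 6 ESC libraries; diamonds are the SILAC batch, circles A and B, blue WT and orange KO. In the section labelled collagens, circles lie up to 6532 normalized counts (Col3a1) with diamonds at 200 or less, while Col18a1, Gpc3, Timp1 and Itga5 have diamonds above all circles.

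Markers of other cell types were summed because a bulk library cannot tell fewer cells of a type from less RNA per cell. Of 10 fibroblast markers outside the collagen lists, 6 were lower and 3 higher. Postn, periostin, had 234, 300, 141 and 191, against 0 and 11.1 (-5.91 ± 0.92), and no read of Dcn, decorin, was found in the KO SILAC-batch library, against 84.3 and 101 in KO A and B. Vim, an intermediate filament gene that ESCs also express, had 858, 840, 423 and 399, against 2378 and 1255 (1.55 ± 0.10). The summed level of the 10 was 1199 to 1663 in A and B and 2625 and 1530 in the SILAC batch. Of 11 Hox cluster genes, which mark position along the body and are low in ESCs, 10 were lower (median -2.71, or -1.33 with values under 3 reads set to 3 reads). They too reached the mean of 10 mostly through A and B. Hoxb9 had 19.3, 22.9, 76.7 and 69.0, against 6.59 and 8.33, and Hoxd8 had 21.4 to 69.7 against the same values, which are at or under the floor of 3 reads. Of 6 endoderm markers, 1 was higher and 3 lower. Sox7 had no read in A and B and 204 and 22.2 in the SILAC batch (at least 51.5-fold higher), and Gata6, a regulator of primitive endoderm, fell by 1.96 ± 0.33. Of 5 neural markers 2 were higher and 1 lower, of 5 trophoblast markers 3 and 1, of 4 blood and endothelium markers 2 and 1, of 2 early mesoderm markers 1 and 1, and neither of 2 muscle markers passed. The summed collagen level thus fell with the batch. The summed level of the fibroblast markers was above A and B in WT and within their range in KO. Vim alone made up most of that sum in the SILAC batch, 2378 of 2625 in WT and 1255 of 1530 in KO. The sum therefore does not stand for the other markers, and 6 of the 10 were lower. The part of other cells in these results was not tested.

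**Figure D5:**
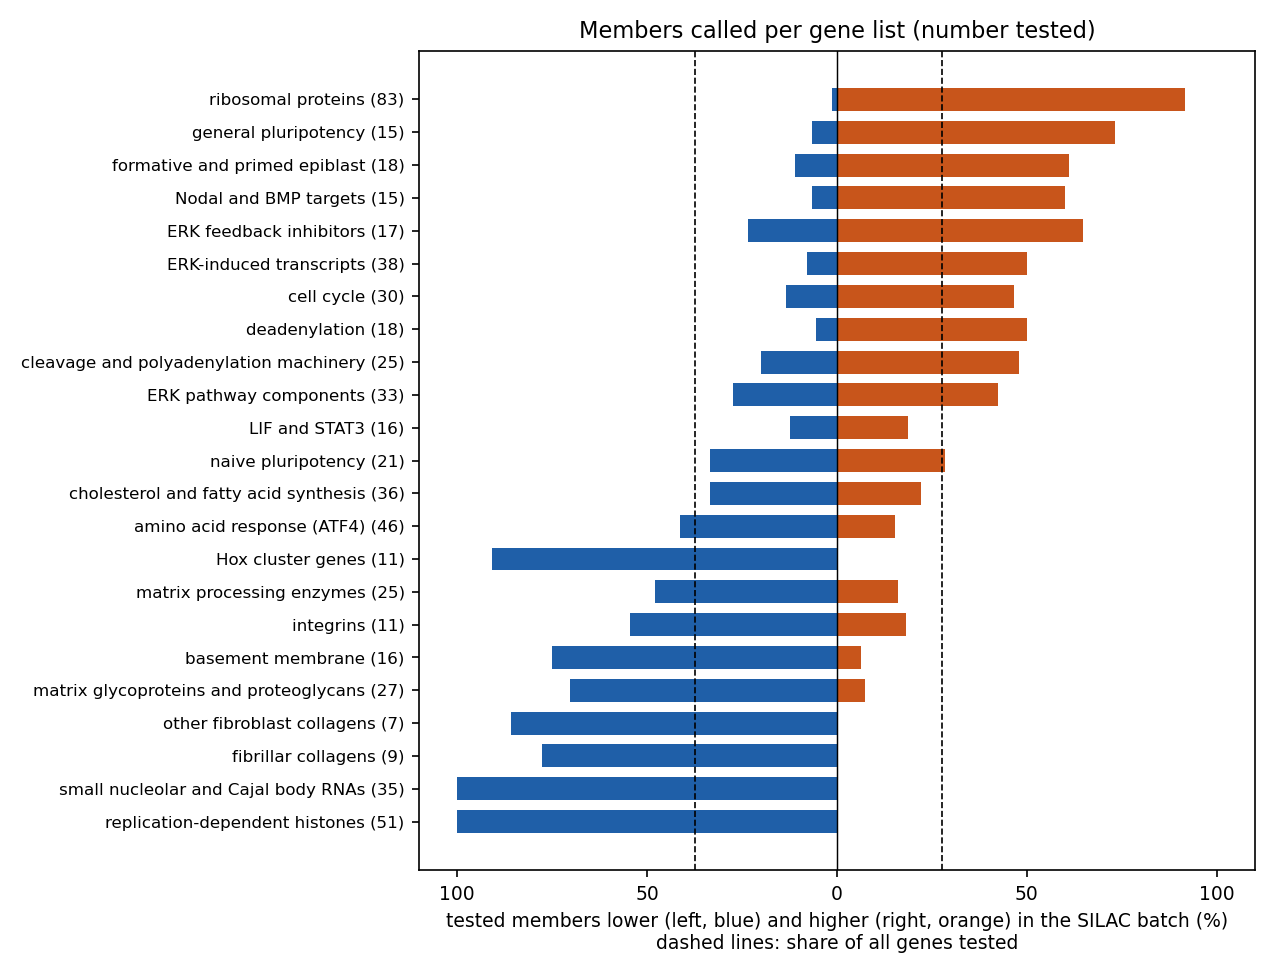
Share of each list's tested members (%) called lower (left, blue) or higher (right, orange) in the SILAC batch, with the number tested in parentheses; dashed lines mark 37.4% lower and 27.7% higher over all 15350 genes. Histones and small nucleolar RNAs, tested mostly because A and B were high, reach 100% lower, while LIF and STAT3, ATF4 and cholesterol lists stay near or under the dashed lines.

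Beyond the lists, the largest rises by the naming rule included Trh, the thyrotropin-releasing hormone gene, with 6.44, 13.0, 12 and 8.17, against 3086 and 6371 (8.72 ± 0.37, adjusted p = 1.7e-05). Adarb2, a catalytically inactive relative of RNA-editing enzymes, had 0.763 to 1.82 against 652 and 480 (7.88 ± 0.36), and Pla2g7, a lipase gene, had 0 to 1.43 against 165 and 372 (7.17 ± 0.56). The steepest falls by the same rule were histone genes and the RNAs without a tail given above.

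The shift of the SILAC batch was tested for a difference between KO and WT. By limma alone 5350 genes passed (34.9%), and 2209 genes (14.4%) passed both in limma and in edgeR's quasi-likelihood test on the recovered reads with the same direction, the rule used here. Among the 2209, the shift was larger in WT for 995 and in KO for 1214, and of opposite sign for 1028. In each genotype the SILAC batch is 1 library, so these p values rest on the spread between A and B alone and assume that the lone library varies like them. They compare 2 single libraries with their controls, and a difference between genotypes cannot be told apart from one between these 2 libraries.

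The library kit does not keep the strand, so reads in exons that overlap a gene on the other strand cannot be told apart; over 20% of the exon length of Ccnd1, Dusp5, Fgf15, Spry1, Rmrp and Snora73b is of this kind.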

How the data were processed

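RNA-seq libraries of mouse ESCs (3 per genotype) and EBs (2 per genotype) were used. Per the submitters' processing notes, the build was mm10 and the tools were DESeq, HTSeq 0.6.0, TopHat2 2.0.10, Bowtie and CASAVA 1.8.2; roles, annotation and strand setting are not given in the sources used here. The deposited signal is normalized read counts per gene, scaled by the authors with 1 size factor per library, per the file headers. Whole reads were recovered for 100% of values (tolerance 0.01). Of 39179 gene identifiers, 37693 had a symbol in GENCODE M21 (GRCm38), and 5 summary lines were left out. Depths are given in the report; a count of 0 allows up to 3 reads, and floors cover counting error only.

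Genes whose mean over the 6 ESC libraries reached 10 were fitted, as log2 of the value plus 1, with limma 3.58.1 in R 4.3.3 (batch and genotype, trended robust variances, two-sided, Benjamini-Hochberg over 15350 genes, threshold 0.05). A fit of 4 group means gave the KO minus WT difference of the shifts. The shift of a gene is said to differ between genotypes where edgeR 4.0.16 (quasi-likelihood, recovered reads) passed too in the same direction. The fits were tested on simulated data. There limma alone gave more false calls for the difference of the shifts than limma and edgeR together. An exact permutation test of 2 libraries against 4 cannot give a p under 0.0667, so none was used. EBs and DESeq2 1.42.0 serve for reference and as an alternative.

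Named genes were the 10 largest changes per direction among called genes whose libraries do not overlap and whose mean is 100 or more in the higher group, per list the 4 most abundant called members in each direction, the most abundant uncalled member, and Mettl3. Not all of them are printed, some genes are not reported here, and the text marks any gene outside the rule. The groups, gene lists and members were chosen with earlier results of these data known. Sequences come from GENCODE M21 transcripts, and shared words are 31-base stretches of a gene's transcripts found at another locus.

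Replicate letters are shared by the genotypes. Deviations from the genotype mean carry the batch shift of C in all 3 letters, so they cannot show whether A or B are paired. The difference of A and B in WT correlated with that in KO across genes at r = 0.36, and the labels do not say what the letters A and B share.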

Additional observations from a re-analysis of the deposited data

Results flagged for a closer look

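For 2209 genes the shift of the SILAC batch in KO and that in WT differed beyond the spread between A and B, in limma and in edgeR's quasi-likelihood test. Each value below is the KO shift minus the WT shift on the log2 scale for a gene described above, and each passed both tests with an adjusted p under 0.05. Among pluripotency and signalling genes, the KO shift was lower for Esrrb (-1.98), Klf4 (-2.0), Zfp42 (-1.12), Dnmt3l (-0.60), Bmp4 (-2.34) and Tet2 (-3.55). It was higher for Lin28a (3.67), Lefty2 (3.11), Pecam1 (1.57) and Dnmt3b (0.67). Lin28a in A and B was lower in KO (16.9 and 12.7) than in WT (307 and 303), while the SILAC-batch libraries had 2508 and 3847.

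Among ERK genes, the KO shift was lower for Etv5 (-1.11) and Lrig1 (-1.02) and higher for Dusp6 (1.15), Dusp9 (0.82) and Igf1r (2.41). Spry4, Spry2, Spred1, Etv4, Myc and Egr1 did not pass both tests, which does not show that their shifts were alike.

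Matrix genes had a lower KO shift for Col1a1 (-2.20), Fn1 (-1.27), Lama5 (-1.36), Lamc1 (-0.74), Nid1 (-0.99) and Itga5 (-1.51). The KO shift was higher for Col18a1 (2.22), Col4a1 (1.88), Col5a1 (1.17), Thbs1 (1.94) and Gpc3 (1.05). For Col18a1 this goes with the low level in KO A and B (389 and 357, against 2509 and 2432 in WT).

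Of the RNAs with unusual ends, Neat1 had -6.44, Malat1 -1.20, Hist1h1c 2.74 and the histone variant Cenpa 0.86. Xist had -1.78. Metabolic genes with a lower KO shift were Asns (-0.70) and Hk1 (-1.03), and Acly (0.55) and Slc7a3 (0.76) had a higher one. Each of these differences contrasts 1 SILAC-batch library per genotype with A and B, so genotype and single library cannot be told apart in them. Col1a1 and Hist1h1c had few reads in the SILAC batch, where 1 read equals 3.29 (WT) and 2.78 (KO) normalized counts. Limma takes its spread from A and B, which does not cover counting error at such low counts.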

How the results depend on the processing

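The 4249 genes higher fell to 2699 with library sizes from protein-coding genes outside the histone list. With a mean of 100 or more, which tests fewer genes, the 5737 lower fell to 3189 and the 4249 higher to 3390. The share of calls that were higher was then 51.5%, against 42.5% in the main fit. Leaving out 1 library gave 3687 to 5038 higher and 5036 to 6632 lower, and the 5350 genes with different shifts in limma gave 5017 to 5541. These were 3273 with a mean of 100 or more, 2209 in edgeR (and in both tools), and 2491 with A and B thinned to the SILAC-batch depth.

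With the replicate letter as a block, which here is partly the batch itself, 3818 genes were higher and 5094 lower. The block ended the calls of Col18a1 and Tet2 (above) and of Dcn (adjusted p = 0.0593), and of no other gene named. Without the genotype covariate, Acly, Ccnd3, Col18a1, Dusp9, Gdf3, Kdm5d and Map2k1 lost their calls. No named gene that passed changed direction under any alternative, or lost its call when 1 library was left out.

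Under the protein-coding library size, list medians turned to -0.09 (cell cycle), -0.10 (cleavage and polyadenylation), -0.11 (deadenylation), -0.30 (ERK components), -0.06 (germline), -0.09 (histone 3' end processing) and -0.10 (p53 targets). Without members that share words they turned to -0.05 (cleavage and polyadenylation), -0.26 (hypoxia and glycolysis) and -0.02 (2-cell-like state). With a mean of 100 or more they turned to 0.03 (all genes) and -0.81 (blood and endothelium). In WT alone, also without the KO SILAC-batch library, they turned to 0.45 (naive pluripotency), 0.28 (neural), 0.12 (LIF and STAT3), -0.41 (muscle) and -1.71 (2-cell-like state), and in KO alone, also without the WT one, to 0.05 (cholesterol), 0.19 (neural), 0.01 (LIF and STAT3) and -0.20 (p53 targets). Leaving out 1 library gave ranges of -0.38 to 0.05 (cholesterol), -0.43 to 0.45 (naive pluripotency), -0.14 to 0.28 (neural) and -0.20 to 0.88 (p53 targets). Medians that moved by over 1.5 times without turning ranged from 0.02 to 0.51 (deadenylation), 0.53 to 1.22 (ERK-induced), 0.10 to 0.20 (ERK components), -0.69 to -0.04 (polyadenylated histone variants), 0.32 to 0.63 (histone 3' end processing), 0.37 to 0.64 (nuclear-retained RNAs), 0.12 to 1.07 (Wnt), -0.40 to -0.14 (ATF4), 0.25 to 0.62 (cell cycle), -1.40 to -0.59 (integrins), -0.63 to -0.41 (matrix processing), 0.28 to 0.84 (germline), -2.47 to -1.52 (fibroblast), 0.34 to 1.15 (trophoblast) and 0.35 to 0.98 (blood and endothelium). The cause was not tested. Depth limits low genes: a value under 9.88 (WT) or 8.33 (KO) in the SILAC batch is fewer than 3 reads.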

Other observations

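Of 24 germline genes tested, 6 were higher and 3 lower in the SILAC batch (median 0.36), and of 5 genes of the 2-cell-like state, 1 was higher and none lower. The median of these 5 was -1.71 in WT and 3.07 in KO, and the shift differed between the genotypes for 4 of them, but only 1 shares few words with another locus. Of 5 equal bins of genes by GC content, the bin with the highest had a median of -0.24, against 0.02 in each of the 3 lowest. Messenger RNAs encoded by mitochondria are listed at 0 in all 10 libraries. Gm26917, a noncoding locus on chromosome 17 chosen after its values were seen, took 1.69% to 3.79% of gene reads in ESC A and B and 0.000231% and 0.000195% in the SILAC batch.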
